A study of Mus musculus with 9 samples.

Results

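PI3 kinase and AKT transcripts were followed in mouse mast cells through 8 genes: the class I catalytic subunits Pik3ca, Pik3cb, Pik3cd and Pik3cg, the regulatory subunits Pik3r1 and Pik3r5, and the AKT kinases Akt1 and Akt2. They were taken by gene symbol from the deposited tables, where all 8 of them are among the 15109 genes listed. The cells were mast cells grown from wild-type C57BL/6 bone marrow over at least 4 weeks in medium conditioned by WEHI-3 cells, a source of interleukin 3. There were 3 groups of 3 libraries of polyadenylated RNA. Control cells were untreated. BSA cells were sensitised with IgE against the hapten DNP and stimulated with DNP-BSA, a protein carrying that hapten, which crosslinks the IgE on its receptor. Taxinine cells had the same sensitisation and antigen but first received taxinine, a taxane diterpenoid of yew, for 1 h. The labels give no dose, no vehicle and no length of antigen exposure, and there was no group with taxinine alone or with IgE alone. The samples of a group are described as biological replicates without mention of separate animals or cultures, so p-values here reflect only how these samples scatter, and part of that scatter may be technical.

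Class I PI3 kinases phosphorylate a membrane phosphoinositide to give PIP3, a lipid that recruits AKT, TEC family kinases and other proteins with a lipid-binding domain to the plasma membrane. The catalytic alpha, beta and delta subunits (Pik3ca, Pik3cb, Pik3cd) pair with a regulatory subunit of the kind that Pik3r1 encodes, and the gamma subunit (Pik3cg) pairs with Pik3r5 or Pik3r6 products and is driven by G protein-coupled receptors. Delta and gamma are the isoforms enriched in leukocytes, and in mast cells the pathway lies downstream of the IgE receptor and of the receptor for stem cell factor. AKT phosphorylates FOXO transcription factors, TSC2, GSK3 and other substrates that govern survival, growth and metabolism.

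The 250 bases before the start of 4 of the genes are shown for the range of base composition among these windows, and are printed as RefSeq gives them for GRCm38.p6, 5′ to 3′ on the strand of the gene. Pik3cd and Pik3cg stand for the leukocyte isoforms, and Pik3ca and Pik3r1 for the subunits found in most cell types. The windows were chr4:149698709-149698958 on the minus strand for the most upstream of 3 Pik3cd starts, chr12:32208660-32208909 on the minus strand for the more upstream of 2 Pik3cg starts, chr3:32396815-32397064 on the plus strand for Pik3ca and chr13:101768218-101768467 on the minus strand for the more upstream of 2 Pik3r1 starts. In GENCODE M21 none of these windows overlaps an exon, and that of Pik3cd lies within the gene's own span. Capitals mark matches on either strand to any of 4 motifs. The GC box, bound by SP and KLF family factors, was searched as GGGCGG. The motif of GATA factors was searched as AGATAA. The core motif of the blood cell factor PU.1 was searched as GAGGAA. The E-box of the type that MITF, a factor of mast cells, binds was searched as CACATG.
Pik3cd: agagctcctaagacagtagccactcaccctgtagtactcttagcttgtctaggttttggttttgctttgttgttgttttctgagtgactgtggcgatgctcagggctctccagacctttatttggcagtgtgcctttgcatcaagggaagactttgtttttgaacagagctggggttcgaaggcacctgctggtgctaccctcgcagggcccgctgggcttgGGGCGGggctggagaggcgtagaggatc
Pik3cg: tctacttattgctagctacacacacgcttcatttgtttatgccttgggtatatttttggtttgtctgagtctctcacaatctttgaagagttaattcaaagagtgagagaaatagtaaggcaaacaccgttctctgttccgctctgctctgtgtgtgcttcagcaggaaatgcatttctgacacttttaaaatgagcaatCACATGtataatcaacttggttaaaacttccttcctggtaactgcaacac
Pik3ca: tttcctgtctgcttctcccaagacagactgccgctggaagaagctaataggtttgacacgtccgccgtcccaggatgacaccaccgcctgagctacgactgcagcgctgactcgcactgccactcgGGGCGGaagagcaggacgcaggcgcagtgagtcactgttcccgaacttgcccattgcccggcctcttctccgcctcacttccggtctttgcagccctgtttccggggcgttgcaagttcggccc
Pik3r1: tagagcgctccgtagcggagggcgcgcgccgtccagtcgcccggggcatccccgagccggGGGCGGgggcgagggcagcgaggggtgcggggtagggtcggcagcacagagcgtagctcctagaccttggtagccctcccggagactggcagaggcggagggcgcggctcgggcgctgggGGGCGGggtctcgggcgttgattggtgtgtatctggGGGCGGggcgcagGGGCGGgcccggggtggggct

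The Pik3r1 window is 76.4% G or C with an observed to expected CpG ratio of 0.91 and holds 4 GC boxes, and the Pik3ca window is 61.6% G or C with a ratio of 0.81 and 1 GC box. Those of Pik3cd (53.6% and 0.35, with 1 GC box) and Pik3cg (38.8% and 0.32, with no GC box and 1 E-box) are closer to or below the medians over 32851 windows of the same length, 52.4% and 0.373. The other starts of these genes differ. The window before the next Pik3cd start is 66% G or C with a ratio of 0.71 and 3 GC boxes, closer to that of Pik3ca. The one before the last Pik3cd start is 54% and 0.22 with no GC box, and that of the other Pik3cg start is 44% and 0.41 with none. The window before the other Pik3r1 start is 42.4% and 0.54, also with no GC box, far from that of the Pik3r1 start shown. All 8 genes were found in the RefSeq table, with 16 starts in all. The GC box occurred before 8 of these 16 starts and in 32.7% of all windows, the E-box before 6 and in 12.3%, the PU.1 motif before 2 and in 23.3%, and the GATA motif before 0 and in 9.99%. The windows of the 2 Pik3cg starts overlap and share 1 E-box, which is counted at both starts. No matches overlapped in the printed windows. These are counts of letters in a window; which start the cells used and which factors were bound were not measured.

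Library totals ran from 8975371 counts (Taxinine replicate 1) to 14116976 (Control replicate 2), and 3 counts, taken as the limit of detection in 1 library, correspond to 0.192 to 0.347 CPM, the count rescaled to a common depth. Levels below are CPM with library totals scaled by TMM, the trimmed mean of M values, and differences are log2 fold changes with their standard error. The first principal component, 46.1% of the variance, parted the Control libraries from the other 6. On the second, 11% of the variance, Taxinine replicate 1 lay apart at -32.75, against -11.01 and -5.89 for the other two. TMM factors were 1.10 to 1.11 in Control against 0.94 to 0.96 in the other groups, so Control against either treated group depends on the scaling: with plain library totals the median gene moved to -0.23 in BSA against Control and to -0.21 in Taxinine against Control, where TMM puts it at -0.00 and -0.01. Directions against Control are therefore relative to the median gene. The cells carried their label's markers: all 12 mast cell markers were listed, with Kit at 3609 to 4145 CPM and Fcer1a at 4173 to 4684. Of 10 macrophage or monocyte markers 9 were listed, summing to 74.4 to 77.7 CPM in Control, 89.2 to 97.7 in BSA and 79.8 to 84.6 in Taxinine. Most of each sum came from Adgre1 at 42.7 to 53.2, Lyz2 at 13.65 to 22.92 and Cd68 at 13.21 to 17.23, while Csf1r was at 0.59 to 1.27. Neutrophil, lymphocyte and dendritic cell lists had 2 of 8, 2 of 8 and 1 of 5 members listed and summed to at most 4.37 CPM. All 4 basophil markers were listed, summing to 1200 to 1341 CPM, and 3 of 6 erythroid or megakaryocyte markers, of which Itga2b alone gave 1598 to 1765. The part of these other cells in the results was not tested, and in bulk RNA fewer cells of a type and less RNA per cell cannot be told apart.

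Pik3cd was by far the most abundant PI3 kinase transcript in these cells. Per kilobase of merged exons, a scale on which genes can be compared, it stood at 243 ± 2.27 CPM in Control, 220 ± 7.37 in BSA and 205 ± 3.75 in Taxinine (SD, n = 3). Its mean CPM in Control exceeded that of 99.8% of the listed genes. Pik3cg came next among the catalytic subunits at 20.7 ± 1.35 CPM per kb in Control, 19.7 ± 0.703 in BSA and 18.8 ± 0.852 in Taxinine. The ubiquitous Pik3ca and Pik3cb stood at 9.45 ± 0.351 and 8.54 ± 0.447 in Control. In BSA this pair was at 10.6 ± 0.223 and 10.4 ± 1.01, with overlapping libraries, so their order there does not go beyond the spread. In Taxinine the same pair was at 11.2 ± 0.478 and 8.81 ± 0.166, without overlap. As a share of the summed class I catalytic level per kb, Pik3cd made up 86.3% in Control, 84.4% in BSA and 84.1% in Taxinine, and Pik3cg 7.36%, 7.56% and 7.72%.

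The regulatory subunits were scarcer per kb than their catalytic partners. Pik3r1 was at 6.44 ± 0.362 CPM per kb in Control, 7.25 ± 0.237 in BSA and 7.40 ± 0.338 in Taxinine, while Pik3r2, which is no member but encodes the beta regulatory subunit, was at 1.76, 1.72 and 1.69. Of the partners of gamma, Pik3r6 was at 2.10, 2.12 and 2.10. Pik3r5 was close to the limit of detection: each Control library gave 2 counts, the BSA libraries gave 9, 2 and 2, and those of Taxinine 4, 1 and 7. In 5 of the 9 libraries it had 2 counts. AKT transcripts were led by Akt1 at 64.9 ± 1.19 CPM per kb in Control, 65.1 ± 4.14 in BSA and 59.7 ± 0.556 in Taxinine. Akt2 followed at 22.6 ± 0.804, 28.1 ± 1.42 and 25.4 ± 0.286. In Control, Akt2 and Pik3cg were neighbours in this order, with ranges of 22 to 23.53 and 19.17 to 21.56 CPM per kb that lay close without overlapping.

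**Figure D1:**
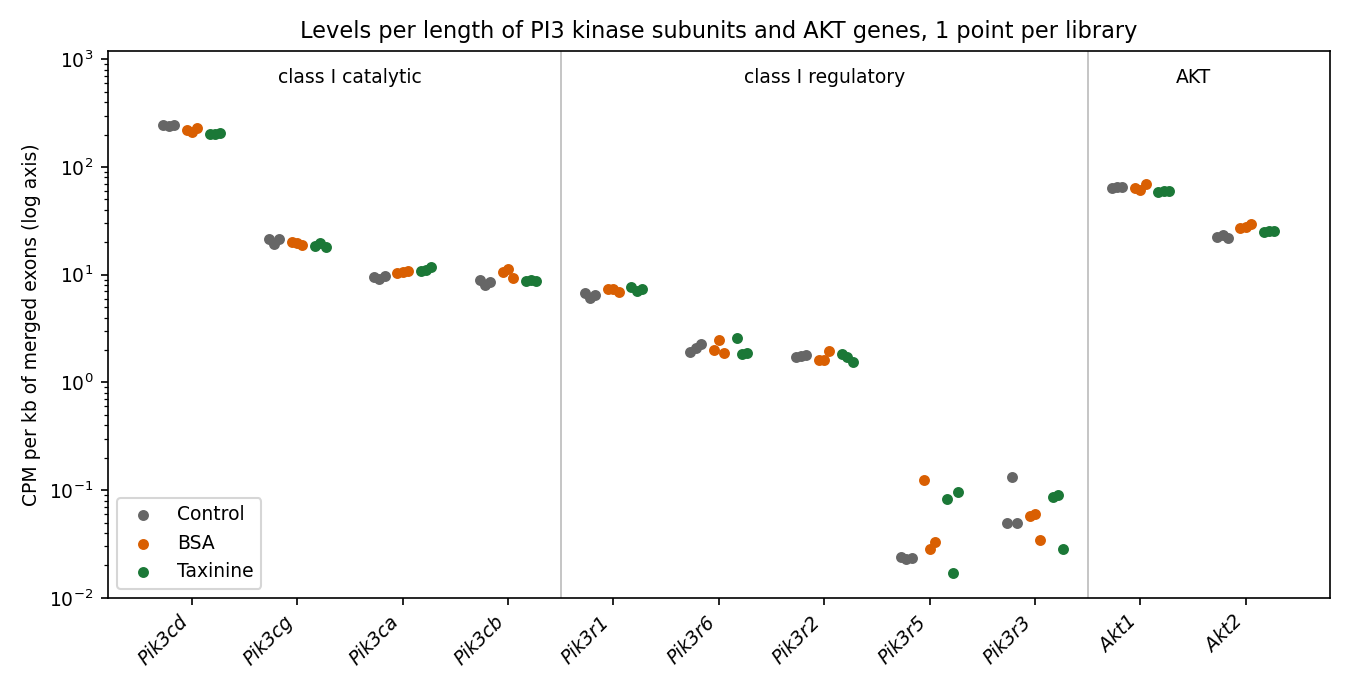
Level per kilobase of merged exons (CPM per kb, log axis) of class I PI3 kinase catalytic and regulatory subunits and AKT genes, with 1 point per library in Control, BSA and Taxinine. Pik3cd lies between 201 and 244 in every library, above every other gene drawn, and Pik3r5 and Pik3r3 lie at the bottom with a handful of counts.

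In GRCm38 the genes lie on chromosome 4, 149649168 to 149702571 (Pik3cd), chromosome 12, 32173473 to 32208659 (Pik3cg), chromosome 3, 32397671 to 32468486 (Pik3ca), chromosome 9, 99036654 to 99140621 (Pik3cb), chromosome 13, 101680563 to 101768217 (Pik3r1), chromosome 11, 68432121 to 68497849 (Pik3r5), chromosome 12, 112653821 to 112674884 (Akt1) and chromosome 7, 27591552 to 27640826 (Akt2). All are protein-coding, and 0 of the 8 share exon bases with another annotated gene. The table gives 1 value per gene, so isoforms are not separated.

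The first comparison asks what IgE with antigen changed in these transcripts. Of the 8 genes 5 passed edgeR's quasi-likelihood test at an adjusted p under 0.05, 4 higher and 1 lower in BSA, against 34% of all genes tested (16.2% higher, 17.8% lower). With a filter of 10 counts in 3 libraries 4 were again higher and 1 lower, where 5146 of 12495 genes were called. With plain library totals 3 were called, all lower, where 7977 of all 15109 genes were called, 13.6% of them higher. Akt2, Pik3cb, Pik3r1 and Pik3ca rose relative to the median gene and Pik3cd fell. The largest of these shifts, that of Akt2, was 24% and disappeared from the calls with plain totals, as did the other 3 rises. The median log2 fold change was 0.17 over the 8 genes and 0.16 without Pik3r5, whose fitted value rests on a few counts, beside -0.00 over all genes. The libraries of the groups did not overlap for 6 of the 8, 5 higher and 1 lower, against 42.9% of all genes (20.2% higher, 22.7% lower). The 5 include Pik3r5, where BSA replicates 2 and 3 had the same 2 counts as each Control library and differ from them by the scaled totals alone. With plain totals 1 gene, Pik3r5, was higher without overlap and 3 were lower (Pik3cd, Pik3cg and Akt1), against 57.2% of all genes (8.31% higher, 48.9% lower).

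Pik3cd, the delta catalytic subunit, read 1529, 1503 and 1525 CPM in Control replicates 1 to 3 and 1376, 1334 and 1426 in BSA. Every BSA library was below every Control library. It fell by 9.21%, a log2 fold change of -0.14 ± 0.04 (edgeR, adjusted p = 0.00256). With plain totals the fall was larger, -0.37. The call held when any 1 of the 9 libraries was left out. Pik3cg, the gamma subunit, read 181.6, 161.6 and 180.8 CPM in Control and 171.3, 167.4 and 159.7 in BSA. Control replicate 2 lay within the BSA range. The log2 fold change of Pik3cg was -0.07, with a 95% interval from -0.17 to 0.03 (edgeR, adjusted p = 0.284); it was called lower with plain totals (-0.30) and without Control replicate 2 (-0.12, adjusted p = 0.0447).

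Pik3cb, the beta subunit, read 64.71, 58.29 and 61.3 CPM in Control against 75.91, 81.56 and 67.21 in BSA. The groups did not overlap, and BSA replicate 3 was the nearest to Control. Its log2 fold change was 0.29 ± 0.06 (edgeR, adjusted p = 0.000131) and 0.06, without a call, with plain totals. Pik3ca, the alpha subunit, read 86.79, 82.29 and 88.45 in Control and 94.21, 95.67 and 98.22 in BSA. All 3 BSA libraries were above the Control ones on this scale. Its log2 fold change was 0.16 ± 0.05 (edgeR, adjusted p = 0.0113), which turned to -0.07 without a call under plain totals, and the call was lost without Control replicate 2 (adjusted p = 0.0629).

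Pik3r1, the regulatory partner, read 68.02, 60.91 and 65.88 CPM in Control and 74.47, 74.39 and 70.3 in BSA, again without overlap. It rose by 0.17 ± 0.06 on the log2 scale (edgeR, adjusted p = 0.0138), a direction that turned to -0.06 with plain totals. The call was lost without Control replicate 2 (adjusted p = 0.1) and without BSA replicate 1 (0.0556). For Pik3r5 the summed counts were 13 in BSA and 6 in Control. Allowing for depth this is a ratio of 2.71 with an exact 95% counting interval from 0.96 to 8.68, so no difference was detectable at this depth.

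Akt2 had the smallest p of the set. It read 159.2, 167.8 and 156.9 CPM in Control and 192.3, 196.5 and 211.5 in BSA. The lowest BSA library stood well above the highest Control one. Its level rose 1.24-fold, 0.31 ± 0.05 on the log2 scale (edgeR, adjusted p = 3.94e-07); with plain totals the log2 fold change was 0.08 and not called. Akt1 read 260.5, 269.3 and 268.6 in Control and 263.4, 251.5 and 285 in BSA, with the BSA libraries on both sides of the Control ones. Its log2 fold change was 0.00, with a 95% interval from -0.09 to 0.09 (edgeR, adjusted p = 0.98), and -0.23 with a call under plain totals.

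**Figure D2:**
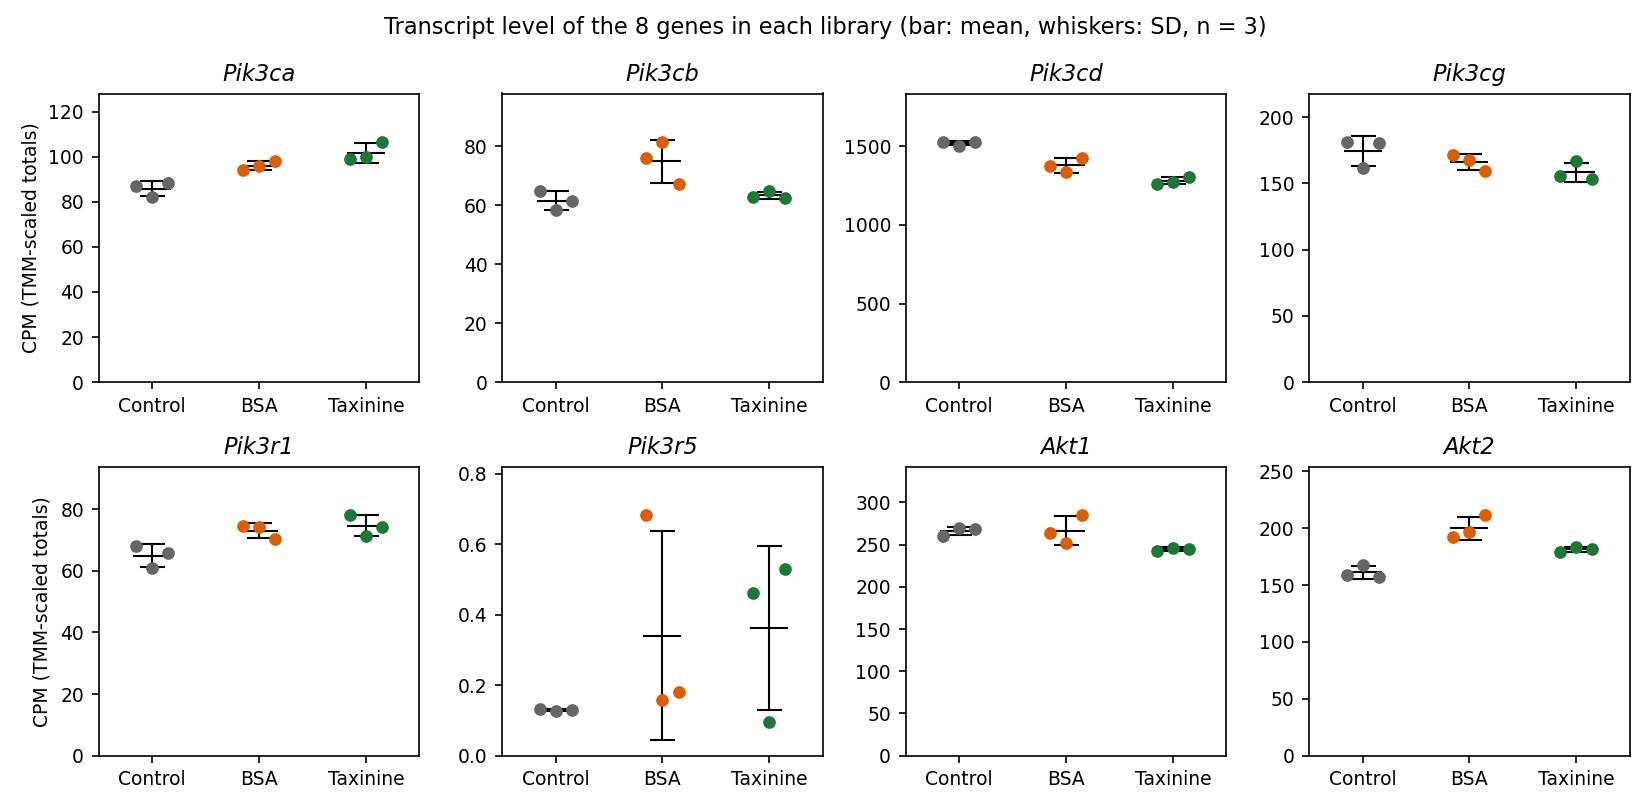
Level of each gene (CPM with TMM-scaled totals, axes from 0) in the 3 libraries of Control, BSA and Taxinine, with the mean and SD. Akt2 and Pik3cb are higher in BSA than in Control without overlap, Pik3cd has means of 1519, 1379 and 1280, and Pik3r5 stays below 0.7 CPM; with plain totals Akt2 and Pik3cb are not called.

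Ratios taken within a library do not depend on how libraries are scaled, so they show which genes moved against each other. The ratio of Akt1 to Akt2 per kb was 2.85, 2.79 and 2.98 in the Control libraries, against 2.38, 2.23 and 2.35 for BSA and 2.35, 2.34 and 2.35 for Taxinine. All Control libraries lay above all others. The mean moved from 2.87 ± 0.0962 to 2.32 ± 0.0818 with antigen, and stayed at 2.35 ± 0.00529 with taxinine (exact permutation test over libraries, both tails, p = 0.1 and 0.8). The ratio of Pik3cd to Pik3r1 per kb was 36.2, 39.7 and 37.3 in the Control libraries, against 29.8, 28.9 and 32.7 for BSA and 25.98, 28.79 and 28.3 for Taxinine. Each group lay below the one before it without overlap (exact permutation p = 0.1 for both steps). The Pik3cd share of class I catalytic transcripts was lower in BSA than in Control (84.4% ± 0.876 against 86.3% ± 0.533, exact permutation p = 0.1) and 84.1% ± 0.363 in Taxinine (exact permutation p = 0.7 against BSA). With 3 libraries against 3 the smallest p possible is 0.1, and after adjustment over these 6 tests the lowest is 0.15, so none passes 0.05. Within that share the mean of Pik3ca went from 3.36% to 4.05% and 4.6%, and that of Pik3cb from 3.03% to 4.00% and 3.62%.

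**Figure D3:**
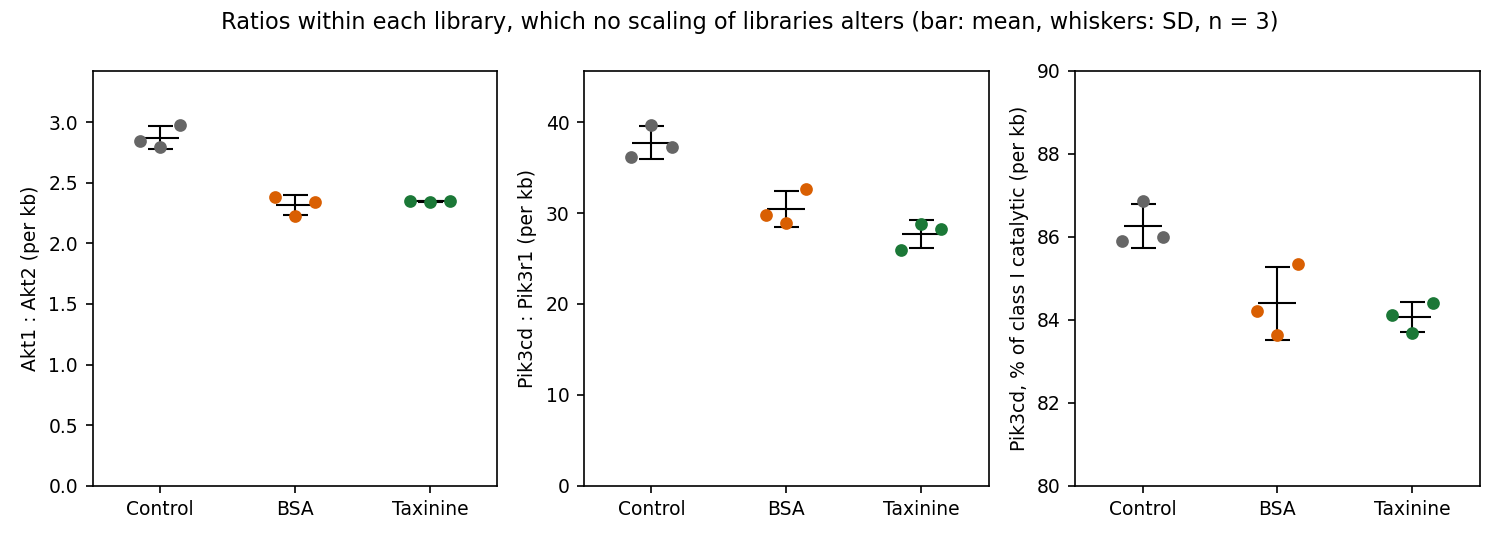
Ratios of transcript levels per kilobase within each library: Akt1 to Akt2, Pik3cd to Pik3r1, and the percentage of class I catalytic transcripts that is Pik3cd (axis from 80 to 90%), with mean and SD of 3 libraries. The Akt1 to Akt2 ratio is 2.79 or more in Control and 2.38 or less in every other library.

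The next comparison sets antigen with taxinine against antigen alone, for the effect of the pretreatment. Only Pik3cb passed the test, 1 of 8 genes, against 6.98% of all genes tested (2.86% higher, 4.12% lower). Pik3cb read 75.91, 81.56 and 67.21 CPM in BSA and 62.95, 64.74 and 62.48 in Taxinine. The Taxinine libraries lay close together, all below the lowest BSA library. On the TMM scale they were within the Control range of 58.29 to 64.71 apart from Taxinine replicate 2, just above it. On plain totals every Taxinine library was below every Control one, at 59.8 to 62.22 against 64.53 to 71.4 CPM. Relative to BSA the level fell by 15.6%, a log2 fold change of -0.24 ± 0.06 (edgeR, adjusted p = 0.00904). With plain totals it was -0.22, also called. Without Taxinine replicate 1, the library that stood apart, it was -0.24 (adjusted p = 0.0453). The call was lost without BSA replicate 2, the highest library (-0.18, adjusted p = 0.0877), and without Taxinine replicate 3 (-0.23, adjusted p = 0.0582).

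A further 3 genes had Taxinine libraries wholly below the BSA ones without passing the test. Akt2 read 192.3, 196.5 and 211.5 in BSA and 179.2, 183.3 and 181.8 in Taxinine, -0.14 on the log2 scale with a 95% interval from -0.23 to -0.05 (edgeR, adjusted p = 0.0571). Pik3cd read 1260, 1275 and 1306 in Taxinine, -0.11 with an interval from -0.18 to -0.03 (adjusted p = 0.0746). Akt1 read 242.1, 246.5 and 245.2, -0.12 with an interval from -0.21 to -0.03 (adjusted p = 0.0903). These values sit near the threshold: Akt2 was called with upper-quartile factors (adjusted p = 0.042), in a fit of the 2 groups alone (0.0431) and without Control replicate 1, Control replicate 2 or BSA replicate 1 (0.0482, 0.0352 and 0.04). Pik3cd was called by DESeq2 (0.0276) and without Control replicate 2 or BSA replicate 2 (0.0484 and 0.0264), and Akt1 without BSA replicate 2 (0.02). In all, 5 of the 8 genes had groups that did not overlap, 4 lower and 1 higher in Taxinine, against 23.9% of all genes (12.4% lower, 11.5% higher). The same genes were lower and higher without overlap with plain totals, against 24.6% of all genes (9.76% lower, 14.8% higher).

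The gene that was higher without overlap was Pik3ca, at 98.82, 99.72 and 106.7 CPM in Taxinine against 94.21, 95.67 and 98.22 in BSA. Its log2 fold change was 0.09 with a 95% interval from -0.02 to 0.19 (edgeR, adjusted p = 0.366). Pik3cg at 155.3, 166.6 and 153.2 and Pik3r1 at 78.11, 71.3 and 74.34 overlapped their BSA libraries, with -0.07 (interval -0.17 to 0.03) and 0.03 (interval -0.09 to 0.14). Pik3r5 gave 12 counts against 13, a ratio of 1.05 with a counting interval from 0.438 to 2.5. The median over the 8 genes was -0.09, beside 0.00 over all genes.

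Taxinine against Control shares its groups with both comparisons above and is given for where the levels ended. Here 6 of the 8 genes were called, 3 higher and 3 lower, against 33.1% of all genes (15.9% higher, 17.2% lower). With plain totals 0 were called higher and 4 lower, where 7386 of all 15109 genes were called, 15% of them higher in place of 48.1%. DESeq2 called 3 higher and 1 lower, where it called 4113 of all genes, 51.2% of them higher. Pik3cd fell by 0.25 ± 0.04 on the log2 scale (edgeR, adjusted p = 7.59e-07), from 1519 ± 14.2 to 1280 ± 23.5 CPM (SD, n = 3), the smallest p of the set here. Pik3cg (-0.14, adjusted p = 0.0229) and Akt1 (-0.12, adjusted p = 0.0307) were called lower as well, but neither by DESeq2 (0.0554 and 0.0523). With 1 library left out these calls were kept in 5 and 4 of 9 fits. That of Pik3cg was lost without Control replicates 1 or 3 (0.103 and 0.133) and without Taxinine replicates 1 or 3 (0.0958 and 0.138). That of Akt1 was lost without Control replicates 2 or 3 (0.0643 and 0.102) and without any 1 Taxinine replicate (0.104, 0.0698 and 0.0802). Pik3ca was higher by 0.25 ± 0.05 (adjusted p = 0.000147), with 0.05 and no call under plain totals. Pik3r1 (0.20, adjusted p = 0.00533) and Akt2 (0.17, adjusted p = 0.00336) were called higher with TMM, and their sign turned under plain totals (-0.00 and -0.03). Pik3cb at 63.4 ± 1.19 against 61.4 ± 3.21 CPM gave 0.05 with an interval from -0.08 to 0.17 (edgeR, adjusted p = 0.637), and was called lower with plain totals (-0.16, adjusted p = 0.0349). Pik3r5 had a count ratio of 2.84 with an interval from 0.987 to 9.23. In this comparison 5 of the 8 genes had groups without overlap, 3 higher and 2 lower, against 43.7% of all genes (20.9% higher, 22.8% lower). With plain totals 0 were higher and 4 lower without overlap (Pik3cb, Pik3cd, Pik3cg and Akt1), against 55.6% of all genes (8.87% higher, 46.7% lower).

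**Figure D4:**
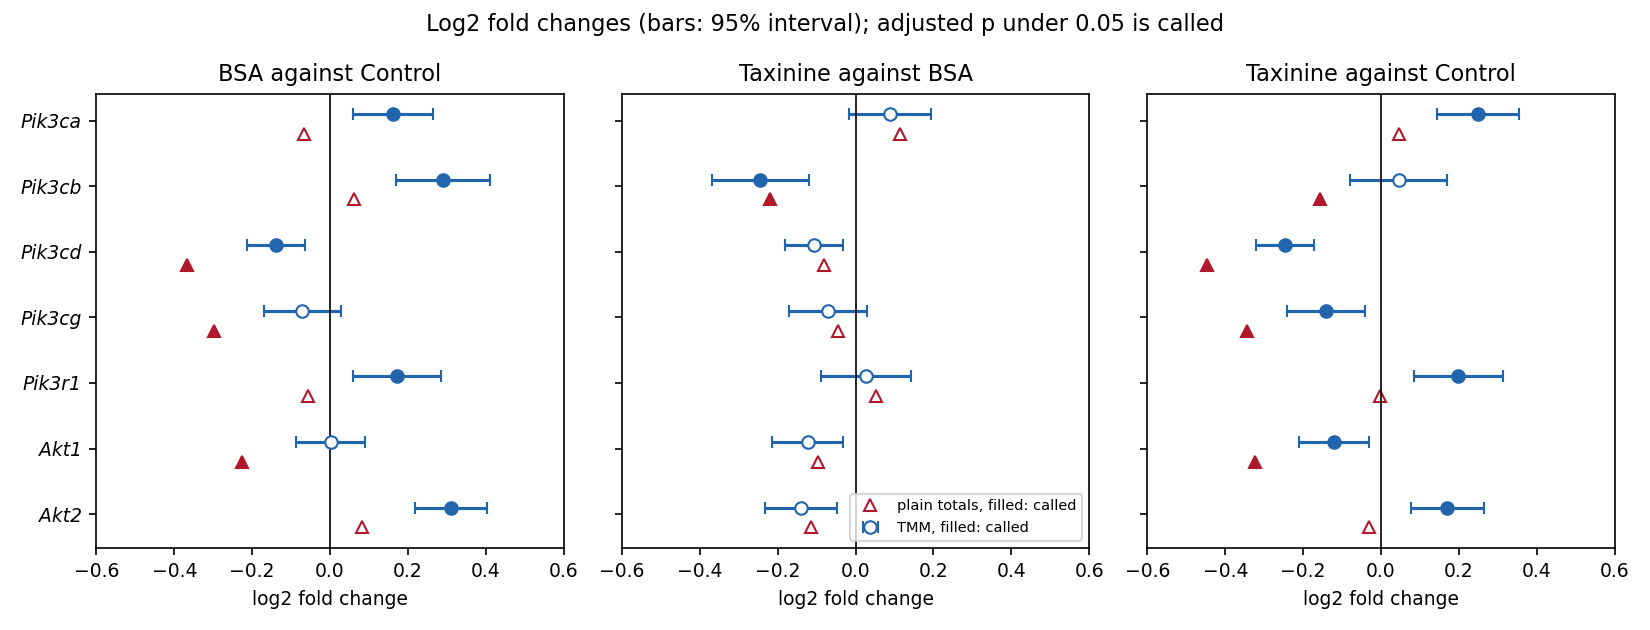
Log2 fold change of 7 genes (Pik3r5, at a few counts, is left out) in each comparison, as circles with TMM factors and 95% intervals and as triangles with plain library totals; filled marks have an adjusted p under 0.05. In BSA against Control all triangles lie left of the circles, and Pik3ca and Pik3r1 change sign (0.16 and 0.17 to -0.07 and -0.06), while in Taxinine against BSA Pik3cb is called under both.

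The members' partners and regulators were taken as 8 lists of 94 genes, of which 92 are in the table. In BSA against Control 29 were higher and 12 lower, 44.6% of the 92, against 34% of all genes. Their median log2 fold change was 0.04. The 34% takes in genes of few counts. With the filter of 10 counts in 3 libraries, 5146 of 12495 genes were called, and 31 list genes were higher and 12 lower. With plain totals the split was 13 higher and 46 lower, where 7977 of all 15109 genes were called, 13.6% of them higher. Of the 41 genes called with TMM, 9 had the opposite sign with plain totals. In Taxinine against BSA 10 were higher and 8 lower, 19.6% of the 92 against 6.98% of all genes, with a median of -0.00. With the filter the list again gave 10 higher and 8 lower, where 1109 of 12495 genes were called. Of the 18 calls without the filter 4 held whichever library was left out, and of the 41 calls against Control 31 did. The members and lists overlap in what they describe, and these counts are descriptions of the lists. The counts of each list below stand beside shares of all genes. In BSA against Control 16.2% of all genes were higher and 17.8% lower. In Taxinine against BSA 2.86% were higher and 4.12% lower. For counts with plain totals in BSA against Control, the background is the 7977 genes called there, 13.6% of them higher.

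Among other PI3 kinase subunits, 1 of 7 measured was called in BSA, and it was lower (0 higher and 2 lower with plain totals). Pik3r4, which with Pik3c3 forms the class III kinase of endosomes and autophagy, went from 40.3 ± 1.91 to 34.3 ± 1.79 CPM (-0.23 ± 0.07; edgeR, adjusted p = 0.00566). In Taxinine both class III genes were called higher than in BSA: Pik3r4 at 40.6 ± 2.33 (0.24, adjusted p = 0.0301) and Pik3c3 at 68.6 ± 5.44 against 59.5 ± 2.7 (0.22, adjusted p = 0.0221). These 2 calls were kept in 5 and 7 of 9 fits with 1 library left out. Pik3c2a and Pik3r3 were called neither in BSA against Control nor in Taxinine against BSA. In Taxinine against Control Pik3c2a was called higher with TMM (0.28, edgeR, adjusted p = 0.0353).

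Adaptors and inhibitors held some of the larger shifts. Of 10 measured, 5 were higher and 1 lower in BSA (2 and 3 with plain totals), against 16.2% and 17.8% of all genes with TMM. Pik3ip1, a transmembrane inhibitor of PI3 kinase, read 126.1, 160 and 147.1 CPM in the Control libraries, against 59.59, 66.28 and 64.66 for BSA and 56.35, 54 and 55.23 for Taxinine. No treated library came near the Control ones, and the log2 fold change with antigen was -1.19 ± 0.06 (edgeR, adjusted p = 2.8e-20), and -1.41 with plain totals. Irs2, an adaptor of insulin signalling, rose from 73.6 ± 2.56 to 132 ± 6.81 CPM (0.84 ± 0.05, adjusted p = 1.71e-17) and was also called higher with plain totals (0.62). Gab3 (0.38) and the adaptor Pik3ap1 (0.32) were called higher with TMM and not with plain totals. Gab2, the adaptor that couples the IgE receptor to PI3 kinase in mast cells, was called higher with TMM (382 ± 15.8 to 431 ± 8.93 CPM, 0.17) and had the opposite sign with plain totals (-0.05). In Taxinine against BSA Gab2 was the 1 adaptor called, at 391.8, 386.9 and 380.9 CPM against 440.3, 428.9 and 422.7, -0.16 ± 0.04 (adjusted p = 0.0123). That call was kept in 6 of 9 fits with 1 library left out.

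Of 10 phosphatases that act on PIP3 or other phosphoinositides, 2 were higher and 2 lower in BSA, against 0 and 6 with plain totals: Inpp4b (0.22) and Synj1 (0.16) higher, with a sign that turned under plain totals (-0.00 and -0.07), and Inpp5e (-0.27) and Inpp5k (-0.14) lower. Inpp5d, the phosphatase SHIP1 of blood cells, was at 111 CPM per kb in Control. With TMM it was called neither in BSA against Control nor in Taxinine against BSA. With plain totals it was called lower in BSA against Control (-0.17).

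Among kinases and regulators at AKT, 7 of 13 were called higher in BSA and 0 lower by edgeR (1 lower at an unadjusted p under 0.05, 0 lower by DESeq2), but 3 higher and 5 lower with plain totals. Of all genes 16.2% were called higher and 17.8% lower by edgeR with TMM. With plain totals 7977 of all genes were called, 13.6% of them higher. Sgk1, an AKT-related kinase, rose from 5.09 ± 0.249 to 20.8 ± 1.72 CPM (2.03 ± 0.11; edgeR, adjusted p = 1e-19), and Ppp2ca, the catalytic subunit of a phosphatase that acts on AKT, from 199 ± 7.17 to 288 ± 13.3 (0.53 ± 0.04). Hsp90aa1 (0.35) was called under both scalings too. Phlpp1 (0.25) was not called with plain totals, and Hsp90ab1, Ppp2r5c and Cdc37 turned sign there (-0.01, -0.09 and -0.10). The chaperone gene Hsp90aa1, whose product holds AKT stable, had the smallest p of the 92 list genes in Taxinine against BSA. It rose from 940 ± 18.9 to 1273 ± 6.71 CPM (0.44 ± 0.04; edgeR, adjusted p = 4.78e-11) and was called whichever library was left out. Phlpp2, an AKT phosphatase, was the other gene called there (0.25, adjusted p = 0.0298), in 4 of 9 fits with 1 library left out. With TMM Pdpk1, the kinase that activates AKT, was called neither in BSA against Control nor in Taxinine against BSA. With plain totals it was called lower in BSA against Control (-0.15). In Taxinine against Control it was called higher with TMM (0.15, edgeR, adjusted p = 0.025).

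MTOR complex genes moved in both directions. Of 16, 3 were higher and 2 lower in BSA (2 and 9 with plain totals), against 16.2% and 17.8% of all genes with TMM. Ddit4, an inhibitor of MTORC1, rose from 61.0 ± 4.65 to 121 ± 2.73 CPM (0.99 ± 0.05) and Rheb, its activator, from 92.9 ± 0.288 to 157 ± 11.3 (0.76 ± 0.05). Rptor, the scaffold of MTORC1, was called higher with TMM (0.34) but not with plain totals (0.11). The subunit Mlst8 fell from 10.9 ± 1.16 to 6.04 ± 0.545 (-0.84 ± 0.13) and Tsc1 was called lower (-0.20, edgeR, adjusted p = 0.00498). In Taxinine against BSA Tsc1 (0.22, adjusted p = 0.0166), its partner Tsc2 (0.17, 0.0404) and Ddit4 (0.165, 0.0458) were called higher and Eif4ebp1, a repressor of translation, lower (-0.20, 0.0442), by edgeR. Tsc1 was kept in 7 of 9 fits with 1 library left out, Eif4ebp1 in 5, Ddit4 in 4 and Tsc2 in 2.

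Lipid-binding effectors were the list with the most calls lower in Taxinine than in BSA: 5 of 14 lower and 0 higher by edgeR, with a median of -0.12. Of all genes 4.12% were called lower and 2.86% higher. At an unadjusted p under 0.05, 9 were lower and 0 higher, a threshold at which all genes were not counted. DESeq2 called 4 lower and 0 higher, where it called 815 of all 15109 genes, 35.5% of them higher. With plain totals edgeR called 3 lower and 0 higher, beside 1122 of all genes, 57.6% of them higher. Tec, a kinase of the TEC family, went from 70.9 ± 1.93 to 57.1 ± 0.976 CPM (-0.31 ± 0.06; edgeR, adjusted p = 0.000199). Arap1, a GTPase-activating protein, went from 275 ± 9.56 to 231 ± 2.37 (-0.25 ± 0.04, adjusted p = 5e-05), and Cyth3, an exchange factor for ARF GTPases, from 224 ± 2.30 to 193 ± 3.98 (-0.22 ± 0.04, adjusted p = 0.000801). These 3 were called whichever library was left out, and Plekha2 (-0.19) and Adap1 (-0.29) in 5 and 4 of 9 such fits. In BSA against Control 4 of the 14 were higher and 1 lower, against 16.2% and 17.8% of all genes. With plain totals 0 were higher and 8 lower, where 7977 of all genes were called, 13.6% of them higher. Plcg2 (0.25) and Adap1 (0.28) were called higher with TMM and not called with plain totals. Btk (0.22) and Cyth1 (0.21) turned to -0.01 with plain totals. Plcg1, a phospholipase that acts after the IgE receptor, was lower under both (-0.15 and -0.38).

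AKT substrates and FOXO factors gave 4 higher and 2 lower of 12 in BSA (2 and 8 with plain totals). Of all genes 16.2% were higher and 17.8% lower with TMM. In Taxinine against BSA 0 of 12 were called by edgeR and 0 by DESeq2, with 2 at an unadjusted p under 0.05 in each, and 1 by edgeR with plain totals, Cdkn1b (0.14 with TMM, adjusted p = 0.0865). Mdm2, the ligase for p53, rose from 198 ± 5.67 to 455 ± 7.11 CPM (1.2 ± 0.04) and Bcl10 by 0.48. Cdkn1b, a cell cycle inhibitor, fell from 208 ± 13.7 to 132 ± 8.16 (-0.66 ± 0.05), and Casp9, an initiator caspase, from 55.9 ± 1.46 to 38.6 ± 3.40 (-0.54 ± 0.07). Foxo4 was called higher with TMM (0.34) but not with plain totals (0.11), and Foxo3 was 0.12 with TMM and -0.10, called lower, with plain totals. FOXO target genes gave 5 higher and 4 lower of 12 in BSA (5 and 6 with plain totals), beside the same shares of all genes. Their median log2 fold change was -0.08. Klf2 rose from 32.9 ± 1.86 to 178 ± 2.51 CPM (2.43 ± 0.05), Bcl2l11 by 0.57 and Cited2 by 0.41, and Trib1 from 0.499 ± 0.0967 to 33.2 ± 4.21. Txnip fell from 1043 ± 55.8 to 434 ± 9.28 (-1.27 ± 0.04), and Sesn1 (-0.60) and Ccng2 (-0.13) were lower too; Pik3ip1 and Irs2, given above, belong to this list as well. In Taxinine against BSA Cited2 (-0.17, edgeR, adjusted p = 0.00509) was lower and Txnip (0.16, 0.0132) and Ccng2 (0.16, 0.0449) higher, kept in 7, 6 and 3 of 9 fits with 1 library left out.

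**Figure D5:**
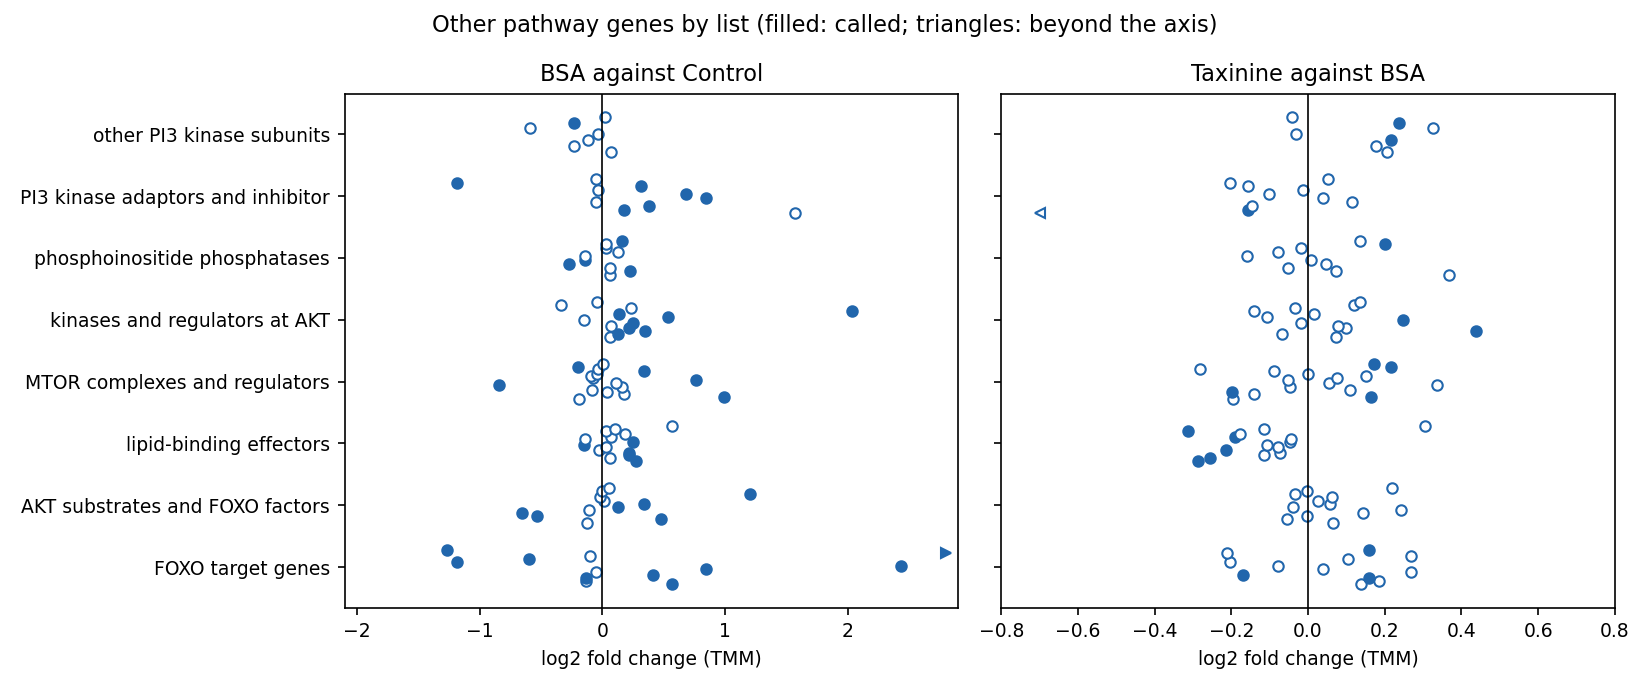
Log2 fold change with TMM factors of the 92 measured genes of 8 pathway lists, in BSA against Control (left) and Taxinine against BSA (right, narrower axis). Each list has 1 point per gene, so Pik3ip1 and Irs2 are drawn in both of their lists. Filled points have an adjusted p under 0.05 and triangles lie beyond the axis. The filled points of the lipid-binding effectors all lie below 0 on the right. Of the 41 genes called on the left, 9 have the opposite sign with plain totals.

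The genes whose log2 CPM followed each member most closely over the 9 libraries were sought among 8531 genes. Since Control libraries lie apart from the others, this likeness rests in good part on the step between groups and is a description. Pik3cd was followed by Acss1 (Pearson r = 0.99), Rab37 (0.98) and Bbs12 (0.98), which were likewise highest in Control and lowest in Taxinine in the mean, Rab37 at 320, 283 and 258 CPM. Pik3cb was followed by Trerf1 (0.96), Cdk17 (0.92) and Nos1ap (0.92), all highest in BSA. Akt2 was followed by Gnl2 (0.99), Ccdc9 (0.99) and Lzts2 (0.98), Pik3ca by Ddx19a, Numb and Kif23 (0.97 each) and Pik3r1 by Ppp4r2 (0.98), Apaf1 (0.98) and Nipbl (0.97). Akt1 was followed by Naaa (0.95), Trip10 (0.94) and Flot1 (0.94), and Pik3cg by Rps6ka5 (0.97), Zbtb38 (0.94) and Cisd2 (0.93). For Pik3r5 the values were Taf1b (0.91), Ube3c (0.90) and Med27 (0.89), at counts too low to read a pattern from.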

How the data were processed

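Messenger RNA was measured in 9 libraries, 3 each of Control, BSA and Taxinine cells, grouped by the sample titles. Libraries were made with a strand-marking kit, per the labels' protocols. Per the submitters' processing notes, STAR 2.7.0f and limma 3.11 were used, with mm10 or GRCm38 as the genome. How reads were counted, on which annotation and whether by strand, is not given in the sources used here. Whole-number read counts were deposited by the authors for 15109 genes, with a second table of log2 values that equals log2(CPM + 1) on plain library totals within 5e-05. The count table's title speaks of TMM values, but its columns hold unscaled counts with unequal totals.

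From the counts, edgeR 4.0.16 (R 4.3.3) computed TMM factors and 1 quasi-likelihood fit over all 9 libraries without a replicate term, with Benjamini-Hochberg adjustment over all genes; a gene is called at an adjusted p under 0.05. No gene was filtered out. Intervals of fold changes are at 95%, and those of count ratios are exact and cover counting error only. Exon lengths and coordinates came from GENCODE M21, where 15106 identifiers were found, and promoter windows from RefSeq. The procedure was run on simulated counts drawn with the spread and TMM-scaled totals fitted to these data. Such counts cannot test the choice of scaling, since they are built on it. Within-library ratios were compared by exact permutation. Alternatives were RLE, upper-quartile and no scaling factors, DESeq2 1.42.0, limma 3.58.1 on the deposited log2 values, a filter of 10 counts in 3 libraries, the 2 groups alone, a replicate block, and leaving out each library.

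The members and lists were chosen with earlier results of these data known. Named genes are the members, up to 4 genes with the smallest p in each list and comparison, every called gene of a list with 4 or fewer calls, and the 3 genes most like each member by Pearson correlation of log2 CPM over 9 libraries, among genes with a mean of at least 3 and without predicted genes. Other genes named, namely the further called genes of longer lists, Kit, Fcer1a, Adgre1, Lyz2, Cd68, Csf1r, Itga2b, Pik3r2, Pik3r6, Pdpk1 and Inpp5d, were chosen after their values were seen. Some genes of the lists are counted but not reported here by name.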

Additional observations from a re-analysis of the deposited data

How the results depend on the processing

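Against Control, the scaling of libraries was the choice that mattered most. For BSA against Control, 3 members were called with plain library totals and 3 with limma on the deposited log2 values, in place of 5, and all genes called numbered 7977 and 7852 in place of 5144, of which 13.6% were higher in each in place of 47.6%. Signs turned with plain totals and with limma for Akt1 (-0.23 and -0.23), Pik3ca (-0.0661 and -0.0645) and Pik3r1 (-0.0558 and -0.0558), and in Taxinine against Control for Akt2 (-0.0316 and -0.0309), Pik3cb (-0.16 and -0.15) and Pik3r1 (-0.0036 and -0.001). Akt1, near 0 in BSA against Control, also turned with upper-quartile factors (-0.0262) and with 2 groups only (-3e-04), and ranged from -0.0476 to 0.042 with 1 library left out. In Taxinine against BSA, leaving out 1 library took Pik3r1 from -0.0036 (without Taxinine replicate 1) to 0.0567, and Pik3r5 from -0.4067 (without Taxinine replicate 3) to 1.0836. There, 2 members were called with upper-quartile factors, 2 with DESeq2 and 2 with the 2 groups only, in place of 1. All genes called numbered 1081, 815 and 1177 in these settings, in place of 1055. With 1 library left out, members called ranged from 4 to 5 in BSA against Control, from 0 to 3 in Taxinine against BSA (0 without Taxinine replicate 3) and from 4 to 6 in Taxinine against Control. The pathway lists went from 18 calls in Taxinine against BSA to 11 with DESeq2 and to 5 to 20 with 1 library left out (5 without BSA replicate 1, 7 without Taxinine replicate 3, 8 without Taxinine replicate 2, 10 without BSA replicate 3 and 11 without Taxinine replicate 1). All genes called there fell from 1055 to 659, 616 and 699 without Taxinine replicate 1, 2 or 3. Pairing by replicate number is not supported by the labels, and same-numbered libraries had correlated deviations of -0.036 to 0.008 against -0.036 to 0.05 for other pairs; with the replicate block, 5, 1 and 6 members and 5078, 1093 and 4972 genes were called in the 3 comparisons. The cause of these changes was not tested, beyond fewer libraries entering the fits that leave 1 out. Of the member values under alternatives, 115, 119 and 116 kept sign and side of the threshold in BSA against Control, Taxinine against BSA and Taxinine against Control, 10, 5 and 6 turned sign, 11, 2 and 17 lost a call and 5, 9 and 2 gained one, where 4, 0 and 4 of the lost and 2, 0 and 2 of the gained calls also turned sign. The counts of genes without overlap under plain totals were added after the data were seen. Pik3r5, at 1 to 9 counts, sets no value that this depth can separate from its neighbours, and it did not pass the filter of 10 counts in 3 libraries.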
